A study of Mus musculus with 35 samples.

Results

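Tbr1, Neurod2, Neurod6, Slc17a7, Emx1, Cux2, Rorb, Fezf2 and Nrn1 mark the excitatory projection neurons of the cerebral cortex, and their counts were followed in RNA-seq libraries made from dissected striatum. The members were the rows of the count table that carry one of these 9 symbols, which gave 10 entries among the 32863 genes kept, since Cux2 is listed under 2 identifiers. The data comprised 35 striata, each from a different mouse 21.7 to 23.0 weeks old, in 4 genotype groups. Hdac2 WT mice numbered 8 with Htt +/+ and 7 with Htt Q111/+, and Hdac2 KO mice 9 and 11, with 22 males and 13 females over the groups. Htt Q111 is a knock-in of a long CAG repeat into mouse huntingtin, with 110 to 144 repeats in the mice that carry it and 7 in Htt +/+ mice. Hdac2 KO mice are homozygous for a floxed Hdac2 allele and carry D9-Cre, a Cre transgene driven by the Ppp1r1b (DARPP-32) promoter, so that deletion takes place in medium-spiny neurons (MSNs) and other striatal cells keep Hdac2. Hdac2 WT mice carried floxed alleles without Cre, 2 of the Htt +/+ mice having 1 floxed allele. No Hdac2 WT mouse carried Cre, so an effect of Cre and one of the Hdac2 deletion cannot be told apart.

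Cortical projection neurons are glutamatergic and lie next to the striatum, to which many of them send their axons. Most striatal neurons are GABAergic MSNs that arise from another part of the embryonic forebrain. Among the members, Emx1 is a homeobox factor of the dorsal forebrain, Neurod2 and Neurod6 are basic helix-loop-helix factors of maturing and adult excitatory neurons, and Tbr1 is a T-box factor of deep-layer and early-born neurons. Fezf2 is a zinc-finger factor of neurons that project below the cortex, Cux2 is a homeobox factor of upper-layer neurons, and Rorb is a nuclear receptor of the layer that receives thalamic input. Slc17a7 encodes the vesicular glutamate transporter VGLUT1, and Nrn1 encodes neuritin, a membrane-anchored protein regulated by activity. RNA from cortical cells in a dissection and RNA made by striatal cells cannot be told apart in bulk libraries, nor can fewer cells of a type and less RNA per cell.

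On GRCm38, the intervals counted were chr7:45163921-45176138 for Slc17a7 (ENSMUSG00000070570), chr11:98325415-98329648 for Neurod2 (ENSMUSG00000038255), chr6:55677818-55681263 for Neurod6 (ENSMUSG00000037984), chr2:61802930-61811801 for Tbr1 (ENSMUSG00000035033) and chr6:85187438-85204462 for Emx1 (ENSMUSG00000033726). Nrn1 (ENSMUSG00000039114) was counted over chr13:36725625-36734477, Fezf2 (ENSMUSG00000021743) over chr14:12341892-12345865, Rorb (ENSMUSG00000036192) over chr19:18930605-19111196 and Cux2 (ENSMUSG00000042589) over chr5:121858387-122050102. All 9 are protein-coding genes, and their counts take in introns as well as exons. The second Cux2 entry (ENSMUSG00000072641) spans 416 nt inside the first, so both can hold the same reads, and Cux2 below means the longer entry. The antisense gene Gm15637 overlaps Cux2 as well, with a median of 0 CPM. No other member shares its interval with another gene.

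Of the 9 genes, 8 had entries in the RefSeq promoter table of GRCm38.p6, and stretches that lie just upstream of a RefSeq start and outside annotated exons are shown for 3 markers that moved together and for Cux2, the member called in a comparison of Hdac2 genotypes. Capitals mark CAGATG or its reverse complement CATCTG, an E-box of the kind bound by NEUROD factors.
Slc17a7, chr7:45163671-45163920, plus strand: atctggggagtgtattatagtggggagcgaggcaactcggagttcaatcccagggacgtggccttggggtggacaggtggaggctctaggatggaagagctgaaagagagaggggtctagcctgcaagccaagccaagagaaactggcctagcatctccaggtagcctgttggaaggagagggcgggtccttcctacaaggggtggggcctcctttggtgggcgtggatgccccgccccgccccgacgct
Neurod2, chr11:98329649-98329895, minus strand: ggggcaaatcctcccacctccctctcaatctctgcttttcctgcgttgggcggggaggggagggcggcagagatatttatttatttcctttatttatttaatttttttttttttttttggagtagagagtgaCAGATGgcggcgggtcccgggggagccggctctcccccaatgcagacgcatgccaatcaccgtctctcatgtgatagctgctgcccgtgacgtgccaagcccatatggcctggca
Neurod6, chr6:55681264-55681513, minus strand: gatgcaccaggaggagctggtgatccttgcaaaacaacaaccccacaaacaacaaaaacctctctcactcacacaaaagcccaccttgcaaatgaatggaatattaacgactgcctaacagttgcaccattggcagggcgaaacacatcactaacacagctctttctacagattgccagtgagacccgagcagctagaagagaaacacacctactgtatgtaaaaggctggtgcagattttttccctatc
Cux2, second start, within the gene, chr5:122047892-122048075, minus strand: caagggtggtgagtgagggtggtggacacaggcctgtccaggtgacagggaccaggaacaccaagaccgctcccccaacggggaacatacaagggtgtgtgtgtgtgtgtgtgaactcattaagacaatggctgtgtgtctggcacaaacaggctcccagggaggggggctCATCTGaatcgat

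On both strands of the 250 bases before and 50 after each start, the E-box was found at Neurod2 and at the second Cux2 start. It lay 118 bases before the Neurod2 start and 79 bases before that of Cux2, whose first start had no match. These are 2 of 8 members, and 17.2% of all 32851 promoters held it. Cux2 and Rorb have more than 1 start and were each counted as 1 member, so the shares are not counted alike. TAATTA, a homeobox core, was present at Tbr1, 33 and 18 bases before the start, and in 5.29% of all promoters. AGGTGTGA, a T-box sequence, and AGGTCA, a word recognised by ROR receptors, were found at no member and in 1.28% and 16.3% of promoters. These matches do not overlap one another, and none was found at Slc17a7 or Neurod6.

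Total counts on the genes kept ranged from 50339179 to 76939791 per library (median 56630712). Hdac2 itself was at 97.2 to 106 CPM (counts relative to library size, scaled by the TMM method) in Htt +/+ Hdac2 WT and 89.7 to 99.4 CPM in Htt +/+ Hdac2 KO libraries, and at 95.1 to 112 and 89.5 to 101 CPM in the corresponding Htt Q111/+ groups, so the ranges overlap in both backgrounds. These counts cover the whole gene, of which only the floxed exons are deleted, and only in MSNs. The study reports that reads of those exons were depleted and HDAC2 protein was lost in Hdac2 KO striata. MSN markers defined the tissue in every library, the 20 measured genes of that list summing to 9326 CPM at the lowest and 14000 CPM at the highest. RNA was extracted on 6 days. Hdac2 WT tissue was extracted on 24, 25 and 27 May. Hdac2 KO tissue was extracted on 26 May, 31 May and 3 June. The exceptions were replicate 1 of Htt Q111/+ Hdac2 KO (25 May) and replicate 9 of Htt +/+ Hdac2 KO (27 May). Apart from these libraries, an effect of extraction day and one of Hdac2 genotype cannot be told apart.

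The first question was how far the libraries differ in cortical markers, irrespective of genotype. A set of 6 markers, Slc17a7, Neurod2, Neurod6, Tbr1, Nrn1 and Emx1, spread over a wide range, and 1 library, Htt Q111/+ Hdac2 WT replicate 7, held the highest level of every one of them. Slc17a7 ran from 2.87 CPM in Htt +/+ Hdac2 KO replicate 1 to 344 CPM in that library, around a median of 16.1 CPM, which puts the highest library 21.4-fold above the median. Neurod2 ran from 0.106 to 22.0 CPM (median 0.889) and Neurod6 from 0.241 to 23.7 CPM (median 1.73). Tbr1 ran from 0.138 to 15.8 CPM (median 0.613) and Nrn1 from 1.17 to 44.7 CPM (median 2.38).

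Emx1 was the scarcest of the 9 genes, with a median count of 7 and fewer than 6 counts in 12 of 35 libraries. It was at 0 counts in Htt +/+ Hdac2 KO replicate 7, which allows up to 0.053 CPM at 3 counts (counting error only), and at 245 counts, or 4.87 CPM, in Htt Q111/+ Hdac2 WT replicate 7. The standard deviation of log2 (CPM + 0.5) over the 35 libraries was 1.39 for Slc17a7, 1.10 for Neurod6, 1.09 for Neurod2, 0.98 for Nrn1, 0.97 for Tbr1 and 0.61 for Emx1. Among 14720 genes with a median of at least 1 CPM, the median of this standard deviation was 0.14 and the 99th percentile 0.58.

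The other 3 markers behaved otherwise. Fezf2 lay between 1.61 and 6.52 CPM (median 2.50) and Cux2 between 7.40 and 26.7 CPM (median 12.5), with Htt Q111/+ Hdac2 WT replicate 7 again the highest, 2.61-fold and 2.13-fold above the median. Rorb lay between 17.5 and 29.6 CPM (median 26.1), a 1.69-fold range in all, and replicate 7 ranked 17 of 35 with 26.3 CPM. Their standard deviations on the log2 scale were 0.38, 0.33 and 0.20.

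After Htt Q111/+ Hdac2 WT replicate 7 came 2 libraries of the Htt +/+ Hdac2 KO group. Replicate 6 had 132 CPM of Slc17a7, 7.42 of Neurod2, 13.2 of Neurod6, 5.67 of Tbr1 and 17.0 of Nrn1, and all 9 markers were among their 3 highest libraries there. Replicate 2 had 105 CPM of Slc17a7, 5.65 of Neurod2, 10.2 of Neurod6, 4.01 of Tbr1 and 11.4 of Nrn1, and 7 of the 9 markers were among their 3 highest. These 3 libraries were the only ones above 100 CPM of Slc17a7.

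Of the next libraries, Htt Q111/+ Hdac2 WT replicate 4 had 67.4 CPM of Slc17a7, Htt +/+ Hdac2 WT replicate 4 had 48.3, Htt Q111/+ Hdac2 KO replicate 10 had 35.7 and Htt Q111/+ Hdac2 WT replicate 1 had 32.9. The lowest levels were those of Htt Q111/+ Hdac2 KO replicate 11 (4.89 CPM), Htt Q111/+ Hdac2 WT replicate 6 (4.15 CPM) and Htt +/+ Hdac2 KO replicate 1 (2.87 CPM). High and low libraries thus occurred within the same genotype group, as the map of the 9 markers by library shows.

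**Figure D1:**
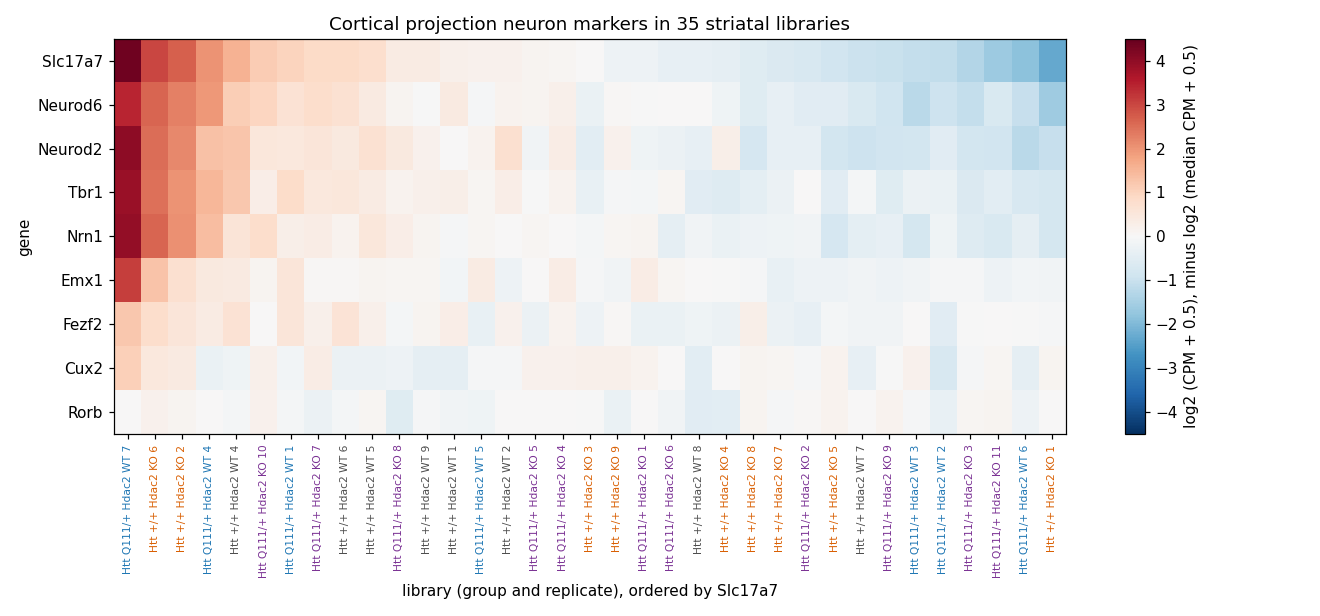
Each column is a library, named by group and replicate and ordered from the highest to the lowest Slc17a7, and each row a marker. Colour gives the log2 ratio of CPM + 0.5 to the median library. The 6 upper rows fade together from left to right, from Htt Q111/+ Hdac2 WT replicate 7 (344 CPM of Slc17a7) to Htt +/+ Hdac2 KO replicate 1 (2.87 CPM), whereas Rorb is nearly even.

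It was then asked whether the markers rise in the same libraries within a group. Deviations of log2 (CPM + 0.5) from the group means were correlated over the 35 libraries for all 36 pairs, with a two-sided permutation test within groups (100000 resamples) and Benjamini-Hochberg adjustment over the 36. All 15 pairs among Slc17a7, Neurod2, Neurod6, Tbr1, Nrn1 and Emx1 were positively correlated, with Pearson's r from 0.83 to 0.98 and Spearman's rho from 0.78 to 0.96. The permutation p of Pearson's r was 1e-05 in each of the 15, the smallest that 100000 resamples can give, and 2e-05 after adjustment, and that of rho was 4e-05 at most.

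Slc17a7 and Neurod6 were the closest pair (r = 0.98, rho = 0.96), followed by Neurod2 with Slc17a7 and Tbr1 with Neurod2 and with Nrn1 (r = 0.96 for each), and Neurod6 and Emx1 were the least close (r = 0.83, rho = 0.81). Without the 2 libraries farthest from the median of the first gene, r stayed between 0.76 and 0.97, and without the 3 libraries above 100 CPM of Slc17a7 between 0.64 and 0.95, the lower values being those of pairs with Emx1. The 15 pairs were positive in every genotype group (lowest r 0.53, in Htt Q111/+ Hdac2 KO), on every extraction day (lowest r 0.54, on 3 June) and in each sex (lowest r 0.71, in males). In the Htt +/+ Hdac2 WT group, which has neither the Htt Q111 allele nor Cre and no library above 100 CPM, r ran from 0.59 to 0.95.

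Fezf2 followed the 6 less closely, with r from 0.76 with Emx1 to 0.83 with Tbr1 (adjusted permutation p of 0.000137 at most), rho from 0.57 to 0.74 (0.00129 at most), and r of 0.43 to 0.61 without the 3 highest libraries. Cux2 correlated with them at 0.63 to 0.77 (adjusted permutation p from 0.00105 to 0.00438, rho from 0.44 to 0.53 with 0.0147 at most), but at 0.10 to 0.31 without the 3 libraries, so that this relation rests largely on them. Rorb did not correlate detectably with any of the 6 (r from 0.13 to 0.27, adjusted permutation p from 0.102 to 0.446, rho from 0.088 to 0.25 with p from 0.165 to 0.619). By group its r with the 6 was 0.50 to 0.70 in Htt Q111/+ Hdac2 WT and -0.53 to -0.27 in Htt Q111/+ Hdac2 KO libraries, a difference that was not tested. It correlated weakly with Cux2 (r = 0.38, adjusted permutation p = 0.00435, rho = 0.38, p = 0.0341) and with Fezf2 (r = 0.35, adjusted permutation p = 0.03, rho = 0.41, p = 0.0211). Cux2 and Fezf2 had an r of 0.69 (adjusted permutation p = 0.00103) and a rho of 0.51 (p = 0.00698).

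A straight line fitted to the CPM of each marker against Slc17a7 describes the same difference. At 0 Slc17a7 the line met 24.9 CPM for Rorb, 11.5 for Cux2 and 2.33 for Fezf2, which are 95.4%, 91.5% and 93.2% of their medians. The intercepts of the co-varying markers depended on single libraries. That of Nrn1 was 0.188 CPM, but 0.537 CPM without Htt Q111/+ Hdac2 WT replicate 7 and 1.03 CPM without the 3 highest libraries, against a median of 2.38 CPM. That of Neurod6 was 0.696 CPM and became 0.122 CPM without replicate 7 and 0.0092 CPM without the 3. For Neurod2, Tbr1 and Emx1 the intercepts were below 0 (-0.198, -0.12 and -0.111 CPM) and, without the 3 libraries, above it (0.0766, 0.0263 and 0.0473 CPM). Every further 100 CPM of Slc17a7 went with 12.5 CPM of Nrn1, 7.28 of Neurod6, 6.25 of Neurod2, 4.51 of Tbr1, 4.24 of Cux2, 1.37 of Fezf2 and 0.951 of Rorb. Without the 3 highest libraries the slope of Cux2 was -1.94, that of Fezf2 3.11 and that of Nrn1 7.88. The slope of Rorb was 3.30 without replicate 7 alone and 0.422 without the 3.

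**Figure D2:**
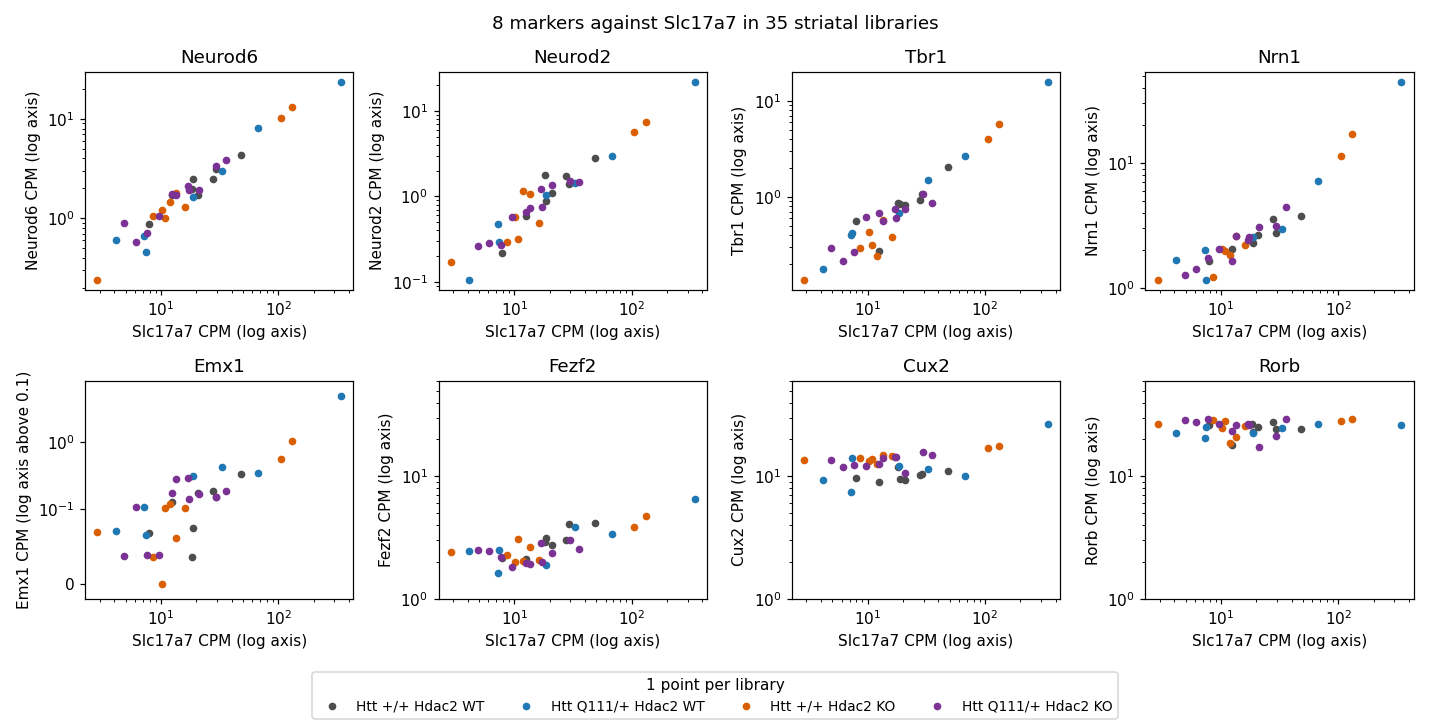
CPM of 8 markers against CPM of Slc17a7, 1 point per library, coloured by genotype group, on log axes (the Emx1 axis is linear below 0.1). Neurod6, Neurod2, Tbr1 and Nrn1 rise along a narrow band over the whole range from 2.87 to 344 CPM of Slc17a7, the 3 libraries above 100 CPM of Slc17a7 are the 3 highest for Cux2 (17.0 to 26.7 CPM), and Rorb stays between 17.5 and 29.6 CPM.

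The markers were not in the same proportion in all high libraries. Neurod6 was at 6.87% of the Slc17a7 CPM in Htt Q111/+ Hdac2 WT replicate 7 and at 10.0%, 9.65% and 12.1% in the next 3 libraries. Emx1 was at 1.41% in replicate 7 and at 0.788%, 0.519% and 0.518% in the next 3. Neurod2 was at 6.39% against 4.46% to 5.62%. Tbr1 (4.58% against 3.80% to 4.30%) and Nrn1 (12.97% against 10.6% to 12.9%) differed less.

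Genes that were no members were examined next, as lists, and their correlations are given as a description over 35 libraries that share the same scaling. The mean of 19 further cortical excitatory neuron genes correlated with the mean of the 6 co-varying markers at r = 0.97 (0.94 without the 3 highest libraries), with 16 of the 19 genes above 0. Slc30a3, the synaptic zinc transporter, had an r of 0.97 and stood 19.8-fold above its median in Htt Q111/+ Hdac2 WT replicate 7, and Nptx1, a neuronal pentraxin, had an r of 0.94 and stood 4.39-fold above its median there. Lamp5, Otof and Etv1, which are on the same list, had r of -0.05, -0.05 and -0.47. Of those above 0, Lhx2, Rspo1, Tshz2, Kcnv1, Emx2 and Mef2c had an r of only 0.08 to 0.24. Rspo1, Tshz2, Etv1, Otof, Lhx2 and Emx2 were below their medians in Htt Q111/+ Hdac2 WT replicate 7, at 0.65-fold to 0.95-fold.

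The claustrum and endopiriform nucleus, sheets of glutamatergic neurons between striatum and cortex, were represented by 5 genes, whose mean had r = 0.98 (0.94 without the 3 libraries). By gene, r was 0.96 for Nr4a2, 0.95 for Rspo2, 0.83 for Ntng2, 0.56 for Gnb4 and 0.39 for Lxn. Without the 3 libraries these were 0.90, 0.89, 0.58, 0.31 and 0.18. Nr4a2, a nuclear receptor abundant in claustral neurons, was at 85.5 CPM in Htt Q111/+ Hdac2 WT replicate 7, 42.9-fold above its median of 1.99 CPM, and at no more than 21.2 CPM elsewhere. Gnb4 and Lxn, which also mark the claustrum, were 1.88-fold and 1.33-fold above their medians there. For 7 of the 8 thalamus and septum genes, those with a median of at least 0.5 CPM, r was 0.18 (-0.10 without the 3 libraries). The gene left out of this r, Slc17a6, encodes the glutamate transporter VGLUT2. Without surrogate variables it was called lower in Htt Q111/+ Hdac2 KO than in Htt Q111/+ Hdac2 WT mice (log2 fold change -1.94, adjusted p = 0.00981 by edgeR). In that fit 13.5% of all genes were called. The call was not made with surrogate variables (-0.43, adjusted p = 0.383 by edgeR). The Hdac2 WT group of this comparison includes replicate 7, and a fit of Slc17a6 without it was not examined.

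Markers of the striatum's own neurons went the other way. The mean of 20 MSN markers correlated at r = -0.69 with the cortical markers (-0.51 without the 3 libraries), and none of the 20 had a positive r. In Htt Q111/+ Hdac2 WT replicate 7 their summed level was 9326 CPM, the lowest of the 35, against a median of 12480 over all libraries. Its own group was low as a whole, with a median of 10240 CPM against 13390 in Htt +/+ Hdac2 WT libraries. Gad1, which makes GABA, was at 654 CPM in replicate 7 against a median of 782 over all libraries. Lists for oligodendrocytes, astrocytes, microglia, vessels and interneurons had r from -0.0031 to 0.17, and those for choroid plexus and for olfactory bulb had -0.06 and 0.24. CPM values within a library add up to a fixed sum, and the part of that in these correlations was not tested.

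**Figure D3:**
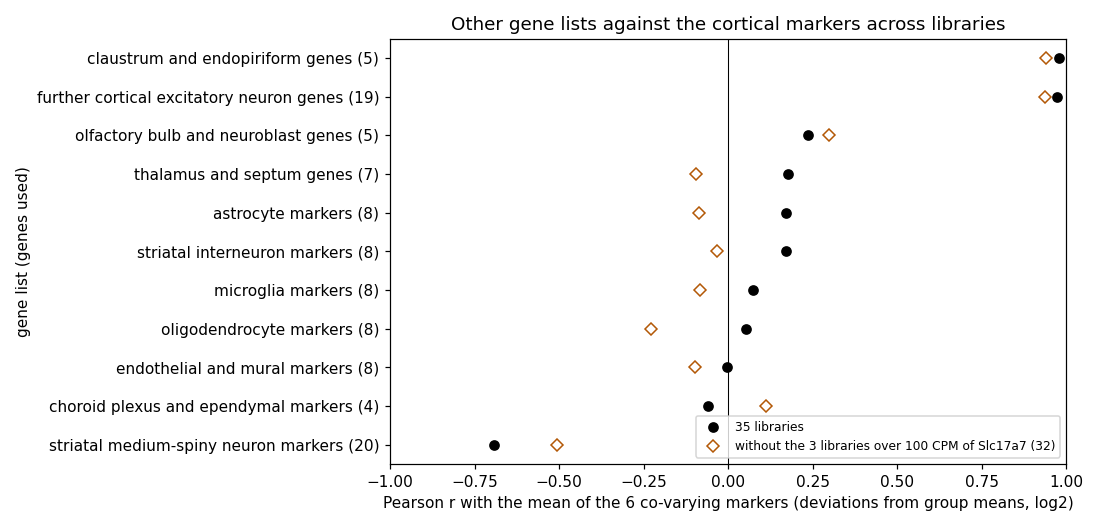
Pearson's r between the mean deviation of each gene list and that of the 6 co-varying markers, over 35 libraries (filled circles) and over 32 without those above 100 CPM of Slc17a7 (open diamonds), group means removed. The 2 lists of cortical and claustral genes stand at 0.97 and 0.98, the MSN list at -0.69, and the others between -0.06 and 0.24.

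Outside all lists, 10 genes with an average of at least 1 on the log2 CPM scale were named as most like the 9 markers by Pearson's r with their mean deviation, among 13696 genes and over 35 libraries. They were 3110035E14Rik (r = 0.98), Cck (0.98), Ipcef1 (0.96), Ncald (0.94), Gfra2 (0.94), Nov (0.94), Efhd2 (0.94), Rtn4r (0.94), Olfm1 (0.93) and Basp1 (0.93). Cck, the neuropeptide cholecystokinin, rose from a median of 4.31 CPM to 61.8 CPM in Htt Q111/+ Hdac2 WT replicate 7, and Rtn4r, the Nogo receptor, from 1.31 to 23.2 CPM. Without the 3 highest libraries r was 0.80 to 0.95 for the 10. By the same measure, to which they themselves contribute, Cux2 ranked 109 and Rorb 2061 among the 13696 genes.

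Across the 4 genotype groups, the 6 co-varying markers overlapped throughout. Slc17a7 had a lowest, median and highest level of 7.90, 19.8 and 48.3 CPM in Htt +/+ Hdac2 WT and of 4.15, 18.7 and 344 CPM in Htt Q111/+ Hdac2 WT libraries. In Htt +/+ Hdac2 KO libraries these were 2.87, 11.9 and 132 CPM and in Htt Q111/+ Hdac2 KO libraries 4.89, 13.5 and 35.7 CPM. The 2 Hdac2 KO groups had the lower medians, and the highest library of the Htt Q111/+ Hdac2 KO group did not reach that of any other group.

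Means put the groups in another order, because single libraries carry much of them. Htt Q111/+ Hdac2 WT libraries had a mean Slc17a7 of 68.9 ± 123 CPM (SD, n = 7), Htt +/+ Hdac2 KO libraries one of 34.6 ± 48.3 (SD, n = 9), Htt +/+ Hdac2 WT libraries one of 23.0 ± 12.5 (SD, n = 8) and Htt Q111/+ Hdac2 KO libraries one of 15.9 ± 9.74 CPM (SD, n = 11). Without the 3 libraries above 100 CPM the first became 23.0 ± 24.2 (SD, n = 6) and the second 10.6 ± 4.17 CPM (SD, n = 7). Neighbours in either order did not differ beyond these standard deviations.

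Tbr1 showed the same pattern, with medians of 0.852 CPM in Htt +/+ Hdac2 WT, 0.685 in Htt Q111/+ Hdac2 WT, 0.385 in Htt +/+ Hdac2 KO and 0.613 in Htt Q111/+ Hdac2 KO libraries, and so did Neurod2, with 1.24, 1.04, 0.572 and 0.722 CPM. For Neurod6 the medians were 2.23, 1.64, 1.31 and 1.74 CPM and for Nrn1 2.51, 2.55, 2.04 and 2.41 CPM in the same order. Emx1 had its highest median in Htt Q111/+ Hdac2 WT libraries (0.311 CPM), against 0.138, 0.105 and 0.15 CPM in Htt +/+ Hdac2 WT, Htt +/+ Hdac2 KO and Htt Q111/+ Hdac2 KO libraries. The groups overlapped for all 6. Fezf2 had medians of 2.97, 2.50, 2.43 and 2.35 CPM and Rorb of 24.9, 24.7, 26.6 and 26.6 CPM in the same order as above for Tbr1, again with overlap.

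**Figure D4:**
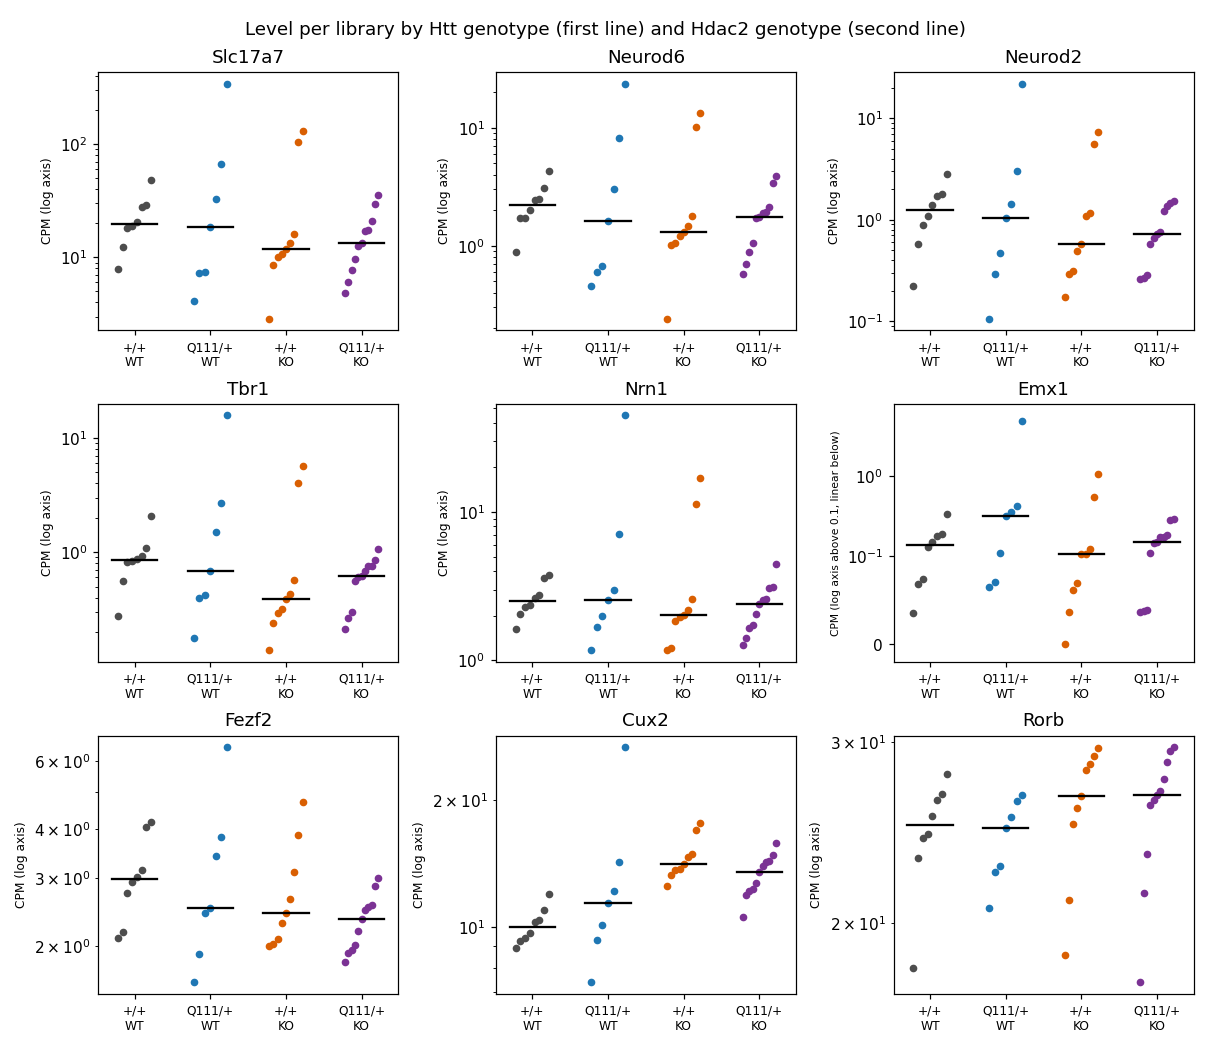
CPM of the 9 markers in each library by genotype group, with Htt genotype on the first and Hdac2 genotype on the second line of each label, on log axes (the Emx1 axis is linear below 0.1). Bars are group medians. Htt Q111/+ Hdac2 WT replicate 7 is the highest point in 8 of the 9 panels, and Cux2 in Htt +/+ mice is the panel in which Hdac2 WT (8.91 to 12.001 CPM) and Hdac2 KO (12.5 to 17.6 CPM) do not overlap. The share of all genes without such overlap was not computed.

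Groups were compared by edgeR's quasi-likelihood test on all 35 libraries with 9 surrogate variables, following the study's methods, at an adjusted p under 0.05. The shares of all genes called between Hdac2 genotypes were higher here than those the study reports at this threshold. Each comparison tested 9 of the 10 entries, since Emx1 had fewer than 6 counts in at least 1 library of every group and did not pass the filter. Between Hdac2 KO and Hdac2 WT in Htt +/+ mice 1 entry was called by edgeR and by DESeq2, Cux2, which was higher in Hdac2 KO mice, where 17.8% of all 17126 genes tested were called by edgeR. Cux2 was at 8.91, 9.99 and 12.001 CPM (lowest, median, highest) in Htt +/+ Hdac2 WT and at 12.5, 14.1 and 17.6 CPM in Htt +/+ Hdac2 KO libraries, without overlap. The share of all genes without overlap in this comparison was not computed, so the separation is not shown to be particular to Cux2. The means were 10.1 ± 1.01 (SD, n = 8) and 14.6 ± 1.69 CPM (SD, n = 9), and the log2 fold change was 0.44 (SE 0.12, adjusted p = 0.00731 by edgeR).

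Cux2 was called in 12 of 15 alternative fits, with log2 fold changes from 0.27 to 0.52. It was not called with extraction date as a term (log2 fold change 0.48, adjusted p = 0.27 by edgeR), with males alone or with a replicate block. With extraction date, 4.8% of all genes were called. All Htt +/+ Hdac2 KO libraries but that of 27 May came from days without a Hdac2 WT library. The fit with extraction date therefore cannot decide between an effect of extraction day on Cux2 and one of Hdac2 genotype. Within 27 May, the day that holds both genotypes, the 1 Hdac2 KO library was at 14.9 CPM and the 3 Hdac2 WT libraries at 9.69 to 10.96 CPM. Slc17a7 in that Hdac2 KO library was 13.5 CPM and in those Hdac2 WT libraries 7.90 to 48.3 CPM. The shorter Cux2 entry had a log2 fold change of 0.54 (adjusted p = 0.13 by edgeR) and was not called.

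The other tested members were not called in Htt +/+ mice. Neurod2 had a log2 fold change of -0.82 (SE 0.37, adjusted p = 0.139 by edgeR), and Slc17a7, Tbr1 and Neurod6 had -0.67, -0.67 and -0.56. Nrn1, Fezf2 and Rorb had -0.18, -0.09 and -0.01. Without Htt Q111/+ Hdac2 WT replicate 7, Tbr1 (-0.80), Slc17a7 (-0.65) and Neurod2 (-0.88) were called lower and Cux2 higher, where 20.8% of all genes were called. Replicate 7 is in neither group but shares the surrogate variables and the estimate of spread, and it was left out for its high marker levels. Without it and without surrogate variables, 2 entries were called, both higher, and 8 of 9 values were above 0, where 24.4% of all genes were called. The 3 lower calls were thus lost without surrogate variables and do not show a difference between genotypes. With all 35 libraries and without surrogate variables the signs turned, to 0.53, 0.59, 0.52 and 0.58 for Neurod2, Slc17a7, Tbr1 and Neurod6, none of them called. Cux2 stayed up at 0.52 (adjusted p = 0.00668 by edgeR), the 1 entry called where 23.4% of all genes were. Without surrogate variables and without the 3 libraries above 100 CPM of Slc17a7, 2 of them in this Hdac2 KO group, these signs turned again, and Tbr1 was called lower (-1.47, adjusted p = 0.0174 by edgeR), where 18.8% of all genes were called. The libraries were left out for their high Slc17a7, with which Tbr1 rises and falls. This call therefore cannot show a difference between genotypes.

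In Htt Q111/+ mice none of the 9 entries was called between Hdac2 KO and Hdac2 WT by edgeR or DESeq2, where 16.5% of 17169 genes were called by edgeR, and 1 entry, Cux2, had an unadjusted p under 0.05 with either tool. Cux2 was at 7.40, 11.4 and 26.7 CPM in Htt Q111/+ Hdac2 WT and at 10.5, 13.5 and 15.8 CPM in Htt Q111/+ Hdac2 KO libraries (lowest, median, highest), with a log2 fold change of 0.21 (SE 0.10, adjusted p = 0.175 by edgeR). Htt Q111/+ Hdac2 WT replicate 7 holds the 26.7 CPM, and the next library of its group had 14.2. Without replicate 7 the log2 fold change was 0.28 and Cux2 was called (adjusted p = 0.0292 by edgeR), where 17.6% of all genes were. Replicate 7 was left out for its high marker levels, so this call cannot show a difference between genotypes.

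For the co-varying markers, the sign in Htt Q111/+ mice differed with and without the surrogate variables. With them, Neurod2 had a log2 fold change of 0.48, Neurod6 0.42, Slc17a7 0.23, Nrn1 0.16 and Tbr1 0.03. Without them, Tbr1 (-2.34), Neurod2 (-2.28), Slc17a7 (-2.12) and Nrn1 (-1.89) were called lower in Hdac2 KO mice, 4 of 9 entries where 13.5% of all genes were called, with adjusted p from 0.0156 to 0.0287 by edgeR. These 4 calls were lost when replicate 7 was also left out, with log2 fold changes of -0.68, -0.35, -0.53 and -0.28. Within 25 May, the 1 Hdac2 KO library was at 13.5 CPM of Slc17a7 and the 2 Hdac2 WT libraries, replicates 4 and 7, at 67.4 and 344 CPM.

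Between Htt genotypes no member was called in Hdac2 WT mice by edgeR or DESeq2, where edgeR called 0.403% of 17133 genes, and 3 entries had an unadjusted p under 0.05 by edgeR and 2 by DESeq2. Neurod2 had a log2 fold change of -1.27 (SE 0.34, adjusted p = 0.104 by edgeR), Neurod6 -0.79, Slc17a7 -0.70 and Tbr1 -0.56. Neurod2 was at 0.22, 1.24 and 2.83 CPM in Htt +/+ and at 0.106, 1.04 and 22.0 CPM in Htt Q111/+ libraries (lowest, median, highest), which overlap. Without surrogate variables all 4 were positive (1.61, 1.22, 1.58 and 1.72), none was called, and 0.292% of all genes were. Without replicate 7 as well they were -0.32, 0.04, -0.0039 and 0.06. Within days the difference of mean log2 Slc17a7 was -0.84 on 24 May, 2.92 on 25 May and -0.88 on 27 May, so its sign depended on the day that holds replicates 4 and 7.

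In Hdac2 KO mice no member was called between Htt genotypes, and no entry had an unadjusted p under 0.05, by edgeR or DESeq2, where edgeR called 0.00584% of 17110 genes with and without surrogate variables. Slc17a7 had a log2 fold change of 0.16 with the surrogate variables and -1.12 without them. Within days the difference of mean log2 Slc17a7 was -0.31 on 26 May, -0.48 on 31 May and 1.63 on 3 June, the last with 1 Htt +/+ library. The interaction of both genotypes was significant for no member by either tool. edgeR called 0.00577% of 17346 genes with surrogate variables and 0% without, and 2 entries had an unadjusted p under 0.05 by edgeR and 4 by DESeq2. For Cux2 the interaction was -0.23 (SE 0.14), so the difference in Cux2 between Hdac2 genotypes was not shown to depend on Htt genotype.

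The surrogate variables took up most of the variation of the cortical markers. Genotype group alone accounted for a fraction of 0.028 to 0.08 of the variance of log2 (CPM + 0.5) of Slc17a7, Neurod2, Neurod6, Tbr1 and Nrn1, and group and surrogate variables together for 0.88 to 0.95. Over all genes tested the medians of these fractions were 0.165 and 0.69. For Cux2 they were 0.32 and 0.797 and for Rorb 0.0391 and 0.726. The third surrogate variable was the one that followed Slc17a7 most closely, with an absolute correlation of 0.64.

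**Figure D5:**
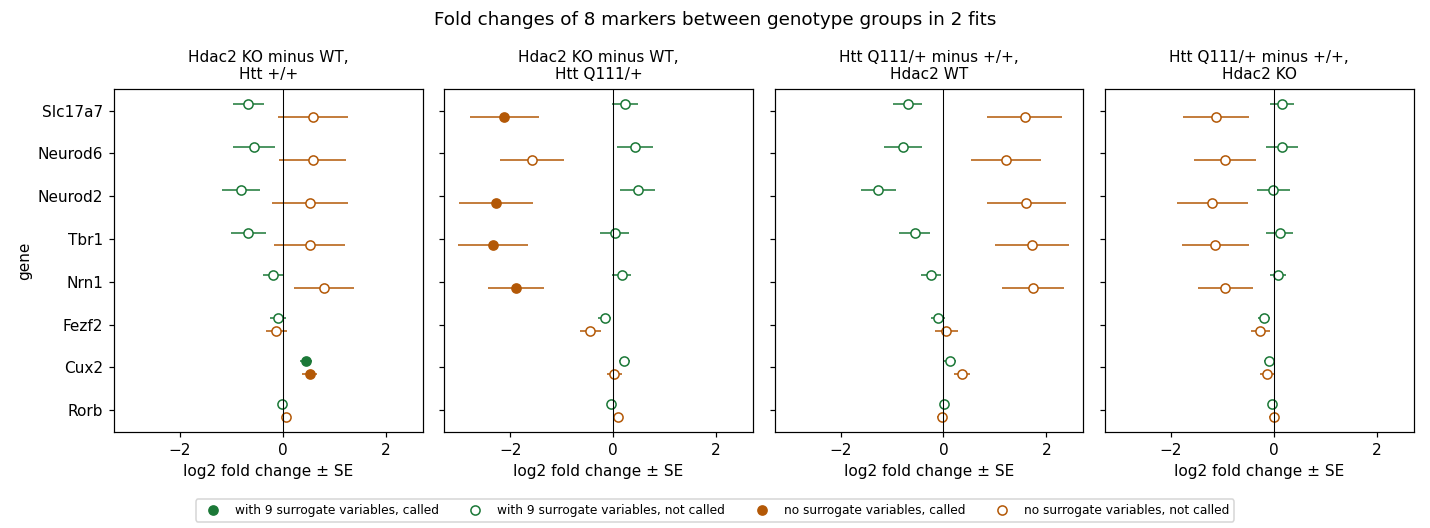
Log2 fold change ± SE of 8 markers in 4 comparisons, with 9 surrogate variables (green, upper) and without (brown, lower), filled where the adjusted p was under 0.05. Slc17a7, Neurod6, Neurod2, Tbr1 and Nrn1 change sign between the 2 fits in every panel, except Neurod2 in the last, whereas Cux2 in Htt +/+ mice is at 0.44 and 0.52 and called in both, and Rorb stays near 0.

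Of the other cortical lists, 6 of 19 further cortical excitatory neuron genes were called between Hdac2 KO and Hdac2 WT in Htt +/+ mice, 3 up and 3 down (median log2 fold change -0.02, that of all genes -0.0014), where 17.8% of all genes were called. In Htt Q111/+ mice 5 of 19 were called, 2 up and 3 down (median 0.0032), where 16.5% of all genes were. Without surrogate variables the latter became 2 up and 6 down (median -0.30), where 13.5% of all genes were called. Sv2b, a synaptic vesicle protein with an r of 0.61 with the cortical markers, was lower in Hdac2 KO mice in both (-0.35 and -0.46), and Rspo1, with an r of 0.08, was higher in both (0.69 and 0.68). None of the 19 was called between Htt genotypes in Hdac2 WT mice with surrogate variables by edgeR. Without them Rprm, a gene of deep-layer neurons, was called higher in Htt Q111/+ mice (1.29, adjusted p = 0.0337 by edgeR), where 0.292% of all genes were called. With them it had 0.59 (adjusted p = 0.0535 by edgeR). Rprm was highest in Htt Q111/+ Hdac2 WT replicate 7, at 22.5 CPM against 11.9 CPM at most elsewhere. A fit of Rprm without this library was not examined. Of 20 MSN markers, 6 were lower in Htt Q111/+ Hdac2 WT than in Htt +/+ Hdac2 WT mice and none higher, where 0.403% of all genes were called, among them Ppp1r1b (-0.28) and Penk (-0.49). The Htt Q111/+ group of this comparison includes replicate 7, and a fit of these genes without it was not examined. The summed MSN markers had a median of 10240 CPM in that group and 13390 CPM in Htt +/+ Hdac2 WT libraries.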

How the data were processed

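The authors sequenced stranded libraries of striatal RNA, aligned paired reads to GRCm38 by GSNAP and tabulated uniquely aligned reads per whole gene interval by bedtools. The deposited values are raw counts per gene and library, and whether strand was used in counting is not given in the sources used here. One further library was left out by the authors for DNA contamination.

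From 39109 entries, 2 mitochondrial rRNAs, 6152 genes of up to 250 nt and 92 ERCC controls were removed. Counts were scaled by TMM. Comparisons used edgeR 4.0.16 (quasi-likelihood, R 4.3.3) on all 35 libraries with surrogate variables from sva 3.50.0, on genes whose count reached 6 throughout 1 of the groups compared, with Benjamini-Hochberg adjustment over all genes. The procedure was tested on simulated data. DESeq2 1.42.0 and other covariates, scalings, filters and subsets were alternatives. Library levels and correlations used log2 (CPM + 0.5) with numpy 2.4.6. Named were all members, up to 4 genes per other list with the lowest adjusted p, or where correlations are described with the highest or lowest r, and the 10 most alike genes. Genes of the other lists named for their r or their level in 1 library were chosen after their values were seen, and can number more than 4 per list. Members, lists, tests and alternatives were chosen with earlier results of these data known.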

Additional observations from a re-analysis of the deposited data

Results flagged for a closer look

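Dixon's ratio was computed on untransformed CPM for the 9 markers in the 3 groups with at most 10 libraries (27 tests). Chance alone marks about 1 in 20 where values are normally distributed, a rate that need not hold here, since several markers are strongly skewed. In all, 8 libraries by marker stood apart. In 7 of them the library is Htt Q111/+ Hdac2 WT replicate 7. Its gap to the next library of the group, as a share of the group's range, was 0.926 for Emx1 (4.87 against 0.421 CPM), 0.868 for Neurod2 (22.0 against 3.00), 0.863 for Nrn1 (44.7 against 7.13) and 0.84 for Tbr1 (15.8 against 2.67). It was 0.814 for Slc17a7 (344 against 67.4 CPM), 0.67 for Neurod6 (23.7 against 8.12) and 0.645 for Cux2 (26.7 against 14.2). The eighth was Tbr1 in Htt +/+ Hdac2 WT replicate 4, with a ratio of 0.551 (2.06 against 1.08 CPM). The tests are not independent, since the markers rise in the same libraries.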

How the results depend on the processing

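The number of member entries called was within 1.5 times that of the fit reported in every alternative for the Htt Q111 allele in either background and for the interaction (0 throughout). In these fits at most 4.89% of all genes were called. With Hdac2 deletion in Htt +/+ mice 1 entry was reported, where 17.8% of all genes were called, and brackets below give this share for each fit. The number was 0 with extraction date in place of surrogate variables (4.8%), with males only (11.3%) and with a replicate block (4.92%). It was 4 with only the 2 groups compared (2 up, 2 down, 29.7%) and 4 without Htt Q111/+ Hdac2 WT replicate 7 (1 up, 3 down, 20.8%). Without that library and without surrogate variables it was 2 (2 up, 24.4%). Without the 3 libraries above 100 CPM of Slc17a7 and without surrogate variables it was 3 (2 up, 1 down, 18.8%). The replicate numbers did not pair the samples: over 45 pairs of libraries of different groups with the same number the median correlation was 0.04, with 15 above 0.1, and under the block Cux2 had a log2 fold change of 0.44 (adjusted p = 0.141 by edgeR), 0.27 with males (adjusted p = 0.119) and 0.48 with extraction date. In Htt Q111/+ mice 0 entries were reported, where 16.5% of all genes were called. The number was 4 without surrogate variables (13.5%), where Neurod2 (-2.28), Nrn1 (-1.89), Tbr1 (-2.34) and Slc17a7 (-2.12) reversed. It was 1 with the first letter of the mouse ID as a term (16.8%), where Tbr1 reversed (-2.0). It was 1 (Cux2) without replicate 7, with (17.6%) and without surrogate variables (13.8%), and without the 3 libraries and surrogate variables (13.4%). The cause of these changes was not tested. Of 45 member values, 30 changed sign without surrogate variables, 31 with the first letter of the mouse ID, 29 with sex and 24 with extraction date in their place, 27 without replicate 7 and surrogate variables, 16 without the 3 libraries and surrogate variables, 10 with males only and 4 or fewer in each other fit of all 5 comparisons. Of 36 values with only the 2 groups compared, 11 did. The lowest r among the 15 pairs of co-varying markers was 0.83, and 0.64 without the 3 libraries. The subsets without these libraries were chosen after seeing the data, by the levels of the markers themselves. Calls that arise when a library of a compared group is left out in this way cannot show a genotype difference. Depth limits Emx1 most, with a median count of 7.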

Other observations

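Interneuron markers did not move as one group in Htt Q111/+ Hdac2 WT replicate 7. Npy, a neuropeptide of interneurons in both striatum and cortex, was at 57.5 CPM there and at no more than 46.9 CPM elsewhere, and Pvalb, of fast-spiking interneurons, was at 36.2 CPM against a median of 19.6. Sst was at 122 CPM, the second highest of 35 (median 94.8). Chat and Slc5a7, which mark the cholinergic interneurons of the striatum, were at 28.0 and 66.0 CPM, ranks 33 and 35 of 35 from the highest. Lhx6, a factor of interneurons from the ventral forebrain, was at 22.1 CPM against a median of 22.7.

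By extraction day, the median of Slc17a7 was 18.3 CPM on 24 May, 25.0 on 25 May, 19.1 on 26 May, 16.1 on 27 May, 10.5 on 31 May and 8.65 on 3 June, with 5 to 6 libraries a day. The ranges overlapped between all days, and the 3 libraries above 100 CPM came from 25, 26 and 31 May. All 3 were from females, whose median was 13.5 CPM against 16.5 in males.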
